A study of Mus musculus with 36 samples.

Results

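Expression of 8 genes of the B cell lineage was examined in epididymal adipose tissue (eWAT) of WT and CCL19-KI mice. The genes were taken by symbol, *Cd79a*, *Cd79b*, *Ms4a1*, *Cd22*, *Cr2*, *Fcer2a*, *Blk* and *Pax5*, and each matched 1 of the 24750 rows of the deposited table. RNA came from 36 mice in 12 groups of 3, which combined both genotypes with a normal diet (ND), a 40% high-fat diet (HFD) or a 60% HFD and with the presence or absence of ligature-induced experimental periodontitis. All mice were males and received their diet from 6 weeks of age, and the ligature was placed at 14 weeks of age, 2 weeks before sampling. In CCL19-KI mice *Ccl19* had been inserted at the *Adipoq* locus, which drives expression in adipocytes, and the line is homozygous. The WT C57BL/6 mice were bred separately, so genotype and breeding colony cannot be told apart. The design text and the study's methods speak of ligature for all mice sequenced, whereas the sample labels give 18 libraries as without it; the labels were followed, and every ligature comparison rests on them. Lymph nodes were, according to the study's methods, removed from the eWAT before RNA extraction.

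B cells are lymphocytes that recognize antigen through a membrane immunoglobulin and, once activated, can become antibody-secreting plasma cells. In fat they lie scattered among adipocytes and in small lymphoid clusters, and they are known to increase in obese visceral fat. CCL19 is a ligand of CCR7, a receptor that guides T cells, dendritic cells and B cells, whereas the chemokine CXCL13 attracts B cells through CXCR5. Since RNA was taken from whole tissue, fewer B cells and less RNA per B cell cannot be told apart in any result here.

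The 8 genes cover separate steps of B cell biology. *Cd79a* (ENSMUSG00000003379, chromosome 7, 24897381 to 24902197, plus strand) and *Cd79b* (ENSMUSG00000040592, chromosome 11, 106311341 to 106314762, minus strand) encode the signalling chains of the B cell receptor. *Blk* (ENSMUSG00000014453, chromosome 14, 63372836 to 63417037, minus strand) encodes a Src-family kinase that acts downstream of that receptor. *Cd22* (ENSMUSG00000030577, chromosome 7, 30865402 to 30880342, minus strand) encodes an inhibitory co-receptor that binds sialic acid. *Cr2* (ENSMUSG00000026616, chromosome 1, 195136811 to 195176716, minus strand) encodes complement receptors that B cells and follicular dendritic cells carry. *Fcer2a* (ENSMUSG00000005540, chromosome 8, 3681737 to 3694175, minus strand) encodes CD23, the low-affinity IgE receptor, and *Ms4a1* (ENSMUSG00000024673, chromosome 19, 11249675 to 11266241, minus strand) encodes CD20. *Pax5* (ENSMUSG00000014030, chromosome 4, 44524757 to 44710487, minus strand) encodes the transcription factor that holds cells to the B cell fate. The coordinates follow GENCODE M21 (GRCm38).

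The sequence upstream of the start sites of the 8 genes was searched for letters of motifs known from B cell promoters and for the TATA box. A link between these letters and the levels of the genes was not tested. RefSeq promoters on GRCm38.p6 were available for *Cd79a*, *Pax5*, *Cd22*, *Cr2* and *Fcer2a*, and the 250 bases before each start site were read on both strands. The motifs were the octamer bound by OCT factors (ATGCAAAT), the core of the EBF site (CCCNNGGGA), the PU box bound by ETS-family factors (GAGGAA) and the TATA box (TATAAA). A PU box was found for *Cd79a*, on the opposite strand at 140 to 135 bases before the start site. *Cd22* held EBF cores on both strands, which overlap and span 49 to 40 bases before its start site, and *Fcer2a* held a TATA box at 33 to 28 bases before the most upstream of its 3 RefSeq start sites. The 3 stretches with a match are shown here 5′ to 3′ on the strand of the gene, without bases that GENCODE places in an exon, and capitals mark the motif letters. They lie at chr7:24897247-24897380 (plus strand), chr7:30879029-30879176 (minus strand) and chr8:3694176-3694424 (minus strand).
Cd79a: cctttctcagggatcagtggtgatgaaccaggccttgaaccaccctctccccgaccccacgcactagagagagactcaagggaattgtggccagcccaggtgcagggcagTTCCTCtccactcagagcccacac
Cd22: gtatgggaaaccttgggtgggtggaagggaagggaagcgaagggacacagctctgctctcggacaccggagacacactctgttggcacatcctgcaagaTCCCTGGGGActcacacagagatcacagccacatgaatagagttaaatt
Fcer2a: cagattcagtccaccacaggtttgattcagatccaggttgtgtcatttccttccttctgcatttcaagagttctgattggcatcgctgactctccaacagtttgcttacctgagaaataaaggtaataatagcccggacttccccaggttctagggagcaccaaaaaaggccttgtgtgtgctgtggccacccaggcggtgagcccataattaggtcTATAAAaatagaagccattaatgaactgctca

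These letters were not specific to B cell genes. Of all 32851 RefSeq promoters, 23.3% held a PU box, 12.4% a TATA box, 5.60% an EBF core and 1.60% an octamer within the same 250 bases. The windows of *Pax5* and *Cr2* held none of the 4 motifs as spelled, and no window of the 5 genes held the octamer. The stretch of *Cd22* lies within the gene as GENCODE draws it, outside its exons.

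The 8 genes were expressed at a low level in whole eWAT. The libraries held 11962228 to 21581595 reads, and 1 read corresponded to 0.0472 to 0.0834 normalized CPM. Per library, 1 to 862 reads were assigned to each of the 8 genes, and none was at 0 in any of the 36 libraries. Divided by exon length, the median level over the 36 libraries was highest for *Cd79b* (1.95 CPM per kb) and *Cd79a* (1.14), followed by *Cd22* (0.432), *Ms4a1* (0.403), *Blk* (0.320), *Pax5* (0.191), *Fcer2a* (0.181) and *Cr2* (0.152). The signalling chains thus had the highest levels per length and the complement receptor the lowest. *Cd79b* exceeded *Cd79a* in all 36 libraries, by a ratio of 1.03 to 4.00 in normalized CPM (median 1.78), with exon lengths of 1431 and 1457 bases. *Fcer2a* was below 1 CPM in 33 libraries and *Blk* in 21, whereas *Cd79b* was below 1 CPM in 1 library. *Fcer2a* passed the filter for testing (at least 1 CPM in at least 3 libraries) through the other 3, where it was 1.2, 1.46 and 3.42 CPM, so its tests rest on few reads. The value of 3.42 CPM is that of the second ligatured WT mouse fed the 40% HFD, without which *Fcer2a* failed the filter. Where that mouse is compared, *Fcer2a* was thus tested only through the group in which it was high.

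The libraries as a whole were checked before the groups were compared. Markers of adipocytes were high in all 36 libraries (mean log2 value of the list 8.74 to 11.3), and *Ccl19*, the inserted gene, was 11.8 to 34.6 CPM in the ligatured CCL19-KI mice and 0.507 to 2.79 CPM in the ligatured WT mice. In 2 libraries without ligature *Ccl19* went against the label: the library labelled WT, ND, replicate 2 was at 19.2 CPM and the library labelled CCL19-KI, 60% HFD, replicate 3 was at 0.687 CPM. These 2 libraries also had the highest sums of epididymis markers, 5702 and 9891 CPM. Medians and counts for the 8 genes in the comparisons that use these libraries are given with and without them, and values per mouse, shares of separated genes and edgeR counts with them. Of all genes tested, 16.6% had their highest value in the library of WT, 40% HFD, without ligature, replicate 1. That library had the lowest sum of adipocyte markers (4603 CPM). Markers of hepatocytes varied widely (mean log2 value of the list 1.73 to 11.3) and separated several of the groups compared below. Their part in the results was not tested. For 8 genes with so few reads, counting error alone gives a coefficient of variation with a median of 12.8% (*Ms4a1*) to 32.5% (*Fcer2a*) over the 12 groups. The spread between the 3 mice of a group was larger than that in 8 to 12 of the 12 groups, with a median of 46.1% (*Cd79a*) to 86.2% (*Ms4a1*).

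Over the 12 groups, the mean log2(CPM + 1) of the 8 genes was highest in ligatured WT mice fed the 40% HFD, 2.35 ± 1.31 (SD, n = 3). It was lowest in ligatured WT mice fed the 60% HFD, 0.81 ± 0.21 (SD, n = 3), and next to lowest in ligatured CCL19-KI mice under the 40% HFD, 0.97 ± 0.44 (SD, n = 3). Between these were CCL19-KI mice without ligature fed the 60% HFD (1.81 ± 0.09) or an ND (1.66 ± 0.46), ligatured CCL19-KI mice fed the ND (1.57 ± 0.37) and WT mice without ligature fed the 40% HFD (1.45 ± 0.56). They were followed by ligatured CCL19-KI mice fed the 60% HFD (1.43 ± 0.54), ligatured WT mice fed the ND (1.40 ± 0.62), and then WT mice without ligature fed the 60% HFD (1.34 ± 0.18) or an ND (1.22 ± 0.43) and CCL19-KI mice without ligature fed the 40% HFD (1.16 ± 0.27). No group differed from the next in this order by more than the pooled SD within groups (0.546), the largest gap being 0.540. Each of the 8 genes by itself had its highest group mean in ligatured WT mice fed the 40% HFD. This order rested on 1 mouse of that group, the second: without it the group mean was 1.63 (n = 2), below that of CCL19-KI mice without ligature fed the 60% HFD, and only *Blk* still had its highest mean there. Without the libraries whose *Ccl19* goes against the label, the mean was 1.43 (n = 2) in WT mice without ligature fed the ND and 1.84 (n = 2) in CCL19-KI mice without ligature fed the 60% HFD. The lowest group mean was that of ligatured WT mice fed the 60% HFD for all except *Cd22*, whose lowest mean was in ligatured CCL19-KI mice fed the 40% HFD.

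**Figure D1:**
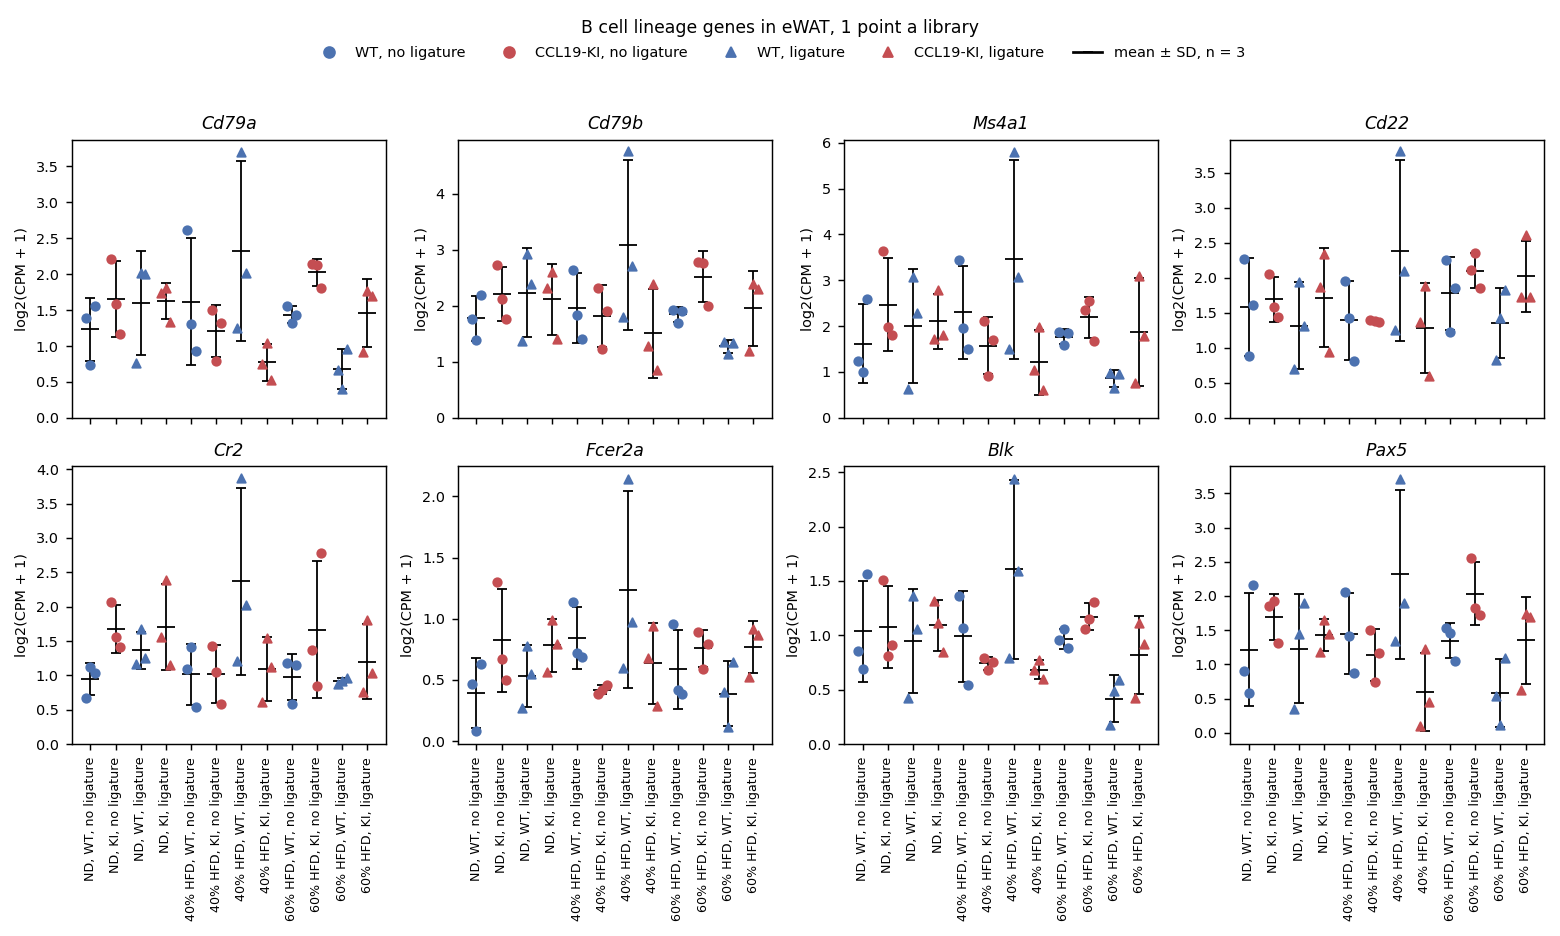
Expression of the 8 B cell lineage genes as log2(CPM + 1) in the 12 groups, 1 panel a gene, with 1 point a library and the mean ± SD of 3 mice; circles are mice without and triangles mice with ligature, blue is WT and red is CCL19-KI. In every panel 1 ligatured WT mouse fed the 40% HFD is the highest of the 36 points, and most other groups overlap.

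The genotype was compared first within each diet and ligature state, since the study asks what adipose CCL19 changes in obese mice with periodontitis. In ligatured mice fed the 40% HFD, all 8 genes were lower in CCL19-KI than in WT mice. *Cd79a* was at 1.39, 12.0 and 3.05 CPM in the 3 WT mice and at 0.677, 1.06 and 0.439 CPM in the 3 CCL19-KI mice. *Pax5* was at 1.54, 12.1 and 2.73 CPM in WT and at 0.0752, 1.34 and 0.365 CPM in CCL19-KI mice, the lowest of these being 1 read. *Blk* was at 0.732, 4.43 and 2.01 CPM in WT and at 0.602, 0.707 and 0.512 CPM in CCL19-KI mice. For these 3 genes every CCL19-KI mouse was below every WT mouse, and among all 17852 genes tested 8.97% separated the groups in one direction or the other.

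For the other 5 genes the groups overlapped, and the second WT mouse was above the rest by a wide margin. *Ms4a1* was at 1.83, 54.5 and 7.38 CPM in WT and at 1.05, 2.97 and 0.512 CPM in CCL19-KI mice. *Cd79b* was at 2.49, 26.1 and 5.53 CPM in WT and at 1.43, 4.24 and 0.804 CPM in CCL19-KI mice. *Cr2* was at 1.32, 13.7 and 3.05 CPM in WT and at 0.527, 1.91 and 1.17 CPM in CCL19-KI mice. In each of these, a single CCL19-KI mouse exceeded the lowest WT mouse. *Cd22* was at 1.39, 13.0 and 3.29 CPM in WT and at 1.58, 2.69 and 0.512 CPM in CCL19-KI mice. *Fcer2a* was at 0.512, 3.42 and 0.963 CPM in WT and at 0.602, 0.919 and 0.219 CPM in CCL19-KI mice. For *Cd22* and *Fcer2a*, 2 CCL19-KI mice were above the lowest WT mouse.

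All 8 genes met the criteria for differentially expressed genes (DEGs) that the study used, namely a ratio of 1.5 or more, or of 0.67 or less, with an unadjusted p no larger than 0.05, whereas 1.25% of the 17852 genes did so. With limma the ratio was taken here between values of CPM + 1, whereas the study used edgeR. Genes near or below 1 CPM reach such a ratio less easily. *Fcer2a* passed the filter for testing only with the second WT mouse included. The 8 genes also varied together across mice, and each was highest in that mouse. The count of 8 is therefore not 8 separate results to be set against the share of all genes. The median difference between CCL19-KI and WT mice was -1.42 on the log2(CPM + 1) scale, against 0.01 over all genes tested, and it ranged from -2.25 for *Ms4a1* to -0.60 for *Fcer2a*. For *Cd79a* the difference was -1.55 (SE 0.453, 95% interval -2.48 to -0.62), and for *Pax5* it was -1.72 (SE 0.496, 95% interval -2.74 to -0.71). After adjustment over all genes none of the 8 passed (limma, adjusted p = 1.00 for each; 0.0112% of all genes did), although 8 had an unadjusted p below 0.05, as had 3.18% of all genes. With edgeR on the recovered reads 8 again met the DEG criteria (1.83% of all genes) and none passed after adjustment (adjusted p = 0.569 to 1.00). On that scale, which adds no constant of 1 to each value, the differences were larger, from -1.5 for *Fcer2a* to -3.83 for *Ms4a1*.

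This difference rested in large part on the second WT mouse. Without it, the median was -0.75 and 2 genes met the DEG criteria, *Cd79a* (-0.87) and *Pax5* (-1.03), and *Fcer2a* was no longer tested. Without replicate 1 of the CCL19-KI mice 5 genes met them, and without replicate 3 of the CCL19-KI mice 6 did. Leaving out 1 of the other 3 mice kept the count at 8. The share of all genes that met the criteria with each of these mice left out is not given here, so these counts have no background beside them. With every one of these 6 mice left out in turn, the differences of all genes that could be tested stayed below 0.

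**Figure D2:**
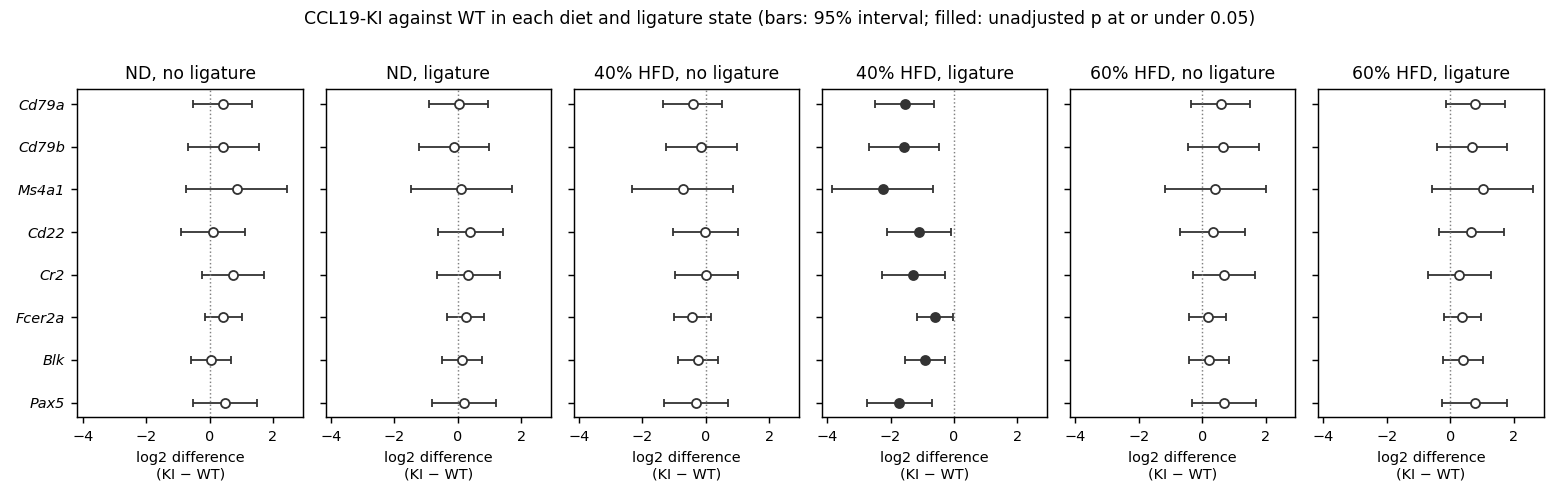
Difference between CCL19-KI and WT mice for the 8 genes in each diet and ligature state, on the log2(CPM + 1) scale with the 95% interval from limma; filled points have an unadjusted p at or under 0.05. In ligatured mice fed the 40% HFD all 8 points are filled and lie between -2.25 and -0.60, and in the other 5 states every interval includes 0.

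**Figure D3:**
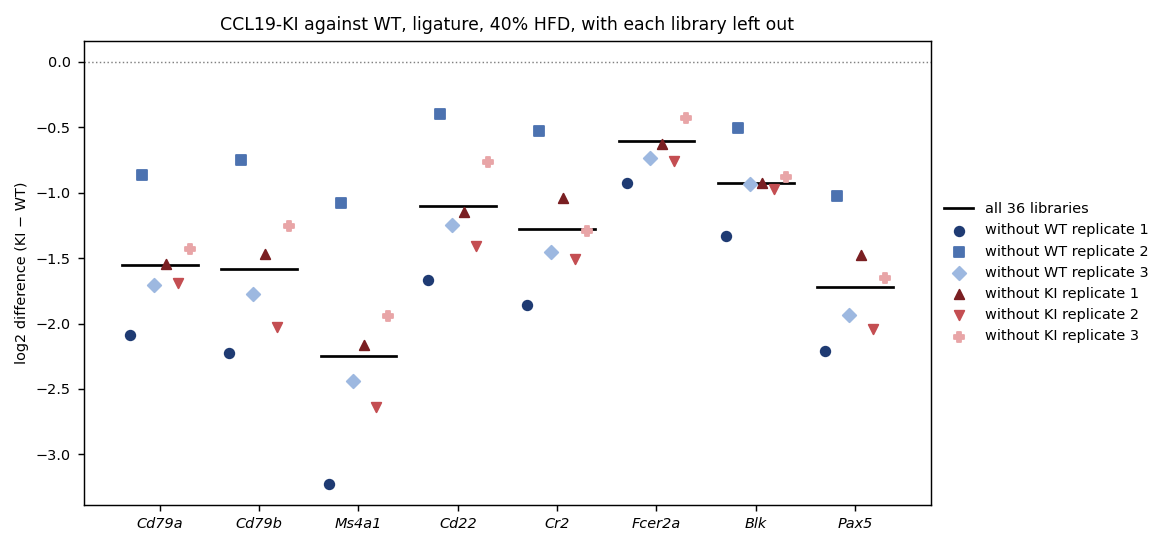
The same difference in ligatured mice fed the 40% HFD with all 36 libraries (black lines) and with each of the 6 compared libraries left out in turn (points). Without WT replicate 2 the points of 7 genes move toward 0 (*Pax5* from -1.72 to -1.03), and *Fcer2a* has no such point because it was not tested there.

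The second ligatured WT mouse fed the 40% HFD was the highest of all 36 libraries for each of the 8 genes. It exceeded the next library by 2.21-fold (*Blk*) to 4.80-fold (*Ms4a1*) and held 2201 reads of the 8 genes, against 62 to 698 in the other libraries. Of the 17852 genes tested, 4.81% had their highest value in this library. It was also above all other 35 libraries for 13 of 20 other B cell genes, 5 of 10 genes for B cell attraction and survival, 4 of 12 T cell genes, 1 of 10 macrophage genes and 1 of 8 plasma cell genes. The same held for 2 of 3 immunoglobulin constant genes and 2 of 7 genes of lymphoid stroma and high endothelial venules. *Cxcr5*, *Tnfrsf13c* and *Cxcl13* each stand in 2 of these lists. The ratio to the median of the other libraries had a median of 4.80 for the other B cell genes, 1.93 for the T cell genes and 1.37 for the macrophage genes. It was 4.36 for the immunoglobulin constant genes and 3.01 for the lymphoid stroma list. The mean log2 value of hepatocyte markers was 5.26 in this mouse and up to 10.4 in its group. What set this library apart was not tested.

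In the other 5 genotype comparisons none of the 8 genes met the DEG criteria or had an unadjusted p below 0.05 with limma, and edgeR gave 1 DEG in all, *Cd79a* in ligatured mice fed the 60% HFD (1.9% of all genes). With sample quality weights 2 of the 8 passed after adjustment in ligatured mice fed the ND, as did 42.3% of all genes. The estimation of these weights stopped short of convergence, here and wherever they are used below. Under no other setting did any of the 8 pass after adjustment in any comparison. In mice without ligature fed the 60% HFD, all 8 were higher in CCL19-KI mice, by a median of 0.51 on the log2 scale (0.04 over all genes), where 23.4% of all genes were DEGs. *Cd79a* was at 3.41, 3.39 and 2.5 CPM in CCL19-KI mice and at 1.94, 1.5 and 1.69 CPM in WT mice. *Cd79b* was at 5.91, 5.84 and 2.99 CPM in CCL19-KI mice and at 2.82, 2.25 and 2.76 CPM in WT mice. *Pax5* was at 4.89, 2.52 and 2.31 CPM in CCL19-KI mice and at 1.88, 1.75 and 1.08 CPM in WT mice. In these 3 genes all CCL19-KI mice were above all WT mice, and 30.7% of all genes separated these groups. The difference was 0.59 for *Cd79a*, with a 95% interval of -0.34 to 1.52 (limma, adjusted p = 0.397), and 0.69 for *Pax5*, with a 95% interval of -0.33 to 1.70 (adjusted p = 0.365). Without the library labelled CCL19-KI whose *Ccl19* was low, the median was 0.56, *Cd79a* was at 0.70 (95% interval -0.35 to 1.75) and *Pax5* at 0.84 (-0.30 to 1.98), and again no gene was a DEG. In the CCL19-KI mouse with 86 reads of *Pax5*, the antisense gene *Gm12462* also had 86 reads, and the strand setting of the counting is not given in the sources used here. Markers of other tissues moved with these groups: all 10 hepatocyte genes fell in CCL19-KI mice after adjustment (median -5.91; 1 of 10 and -4.20 without the libraries whose *Ccl19* goes against the label; mean log2 value of the list 2.04 to 6.56 against 9.16 to 11.3), and all 5 epididymis genes tested separated the groups upward (2.55 to 6.90 against 0.00 to 0.0134). Their part in the difference of the B cell genes was not tested.

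In ligatured mice fed the 60% HFD, all 8 were likewise higher in CCL19-KI mice, by a median of 0.67, and 1.41% of all genes were DEGs. *Cd79a* was at 0.883, 2.39 and 2.24 CPM in CCL19-KI and at 0.583, 0.321 and 0.947 CPM in WT mice, and the groups overlapped. Its difference of 0.78 had a 95% interval of -0.15 to 1.71 (limma, adjusted p = 1.00). *Ms4a1* had the largest difference, 1.02, with a 95% interval of -0.57 to 2.62. The groups overlapped for all 8 genes, whereas 11.9% of all genes separated them.

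Fed an ND, mice without ligature showed a median genotype difference of 0.43 with 23.3% of all genes as DEGs, 0.20 without the library labelled WT whose *Ccl19* was high, and -0.13 with sample quality weights. The only gene of the 8 that separated these groups was *Cr2*, at 3.21, 1.94 and 1.65 CPM in CCL19-KI and 0.598, 1.17 and 1.05 CPM in WT mice, where 28.1% of all genes did. Hepatocyte markers separated these groups as well (mean log2 value of the list 5.51 to 11.0 in CCL19-KI and 1.73 to 1.87 in WT mice), and their part was not tested. In ligatured mice fed the ND the median was 0.17 with 8.44% of all genes as DEGs, and in mice without ligature fed the 40% HFD it was -0.28 with 2.7%. In the latter, *Fcer2a* alone separated the groups, at 0.304, 0.334 and 0.376 CPM in CCL19-KI and 1.2, 0.644 and 0.606 CPM in WT mice (14.2% of all genes did). Averaged over all 6 diet and ligature states, the genotype left the 8 genes at a median difference of 0.00 (-0.00489 without the libraries whose *Ccl19* goes against the label), none was a DEG and 0.454% of all genes were. The 95% intervals of that average ran from -0.75 to 0.56 for *Ms4a1*, the widest, and from -0.20 to 0.27 for *Fcer2a*, the narrowest (-0.80 to 0.59 and -0.24 to 0.25 without those libraries).

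The change of the genotype difference with diet was tested next. Between the 40% HFD and the ND, averaged over the ligature states, it differed by a median of -1.10 (-1.01 without the libraries whose *Ccl19* goes against the label), and 6 of the 8 genes met the DEG criteria against 6.2% of all genes. These were *Cd79a* (-1.21), *Ms4a1* (-1.97), *Blk* (-0.68), *Pax5* (-1.36), *Cr2* (-1.17) and *Fcer2a* (-0.86), and none passed after adjustment (limma, adjusted p = 0.275 to 0.401 for these 6; 0% of all genes passed). With edgeR 7 met the criteria (8.62% of all genes), and with sample quality weights 1 passed after adjustment (18.8% of all genes). Without the second ligatured WT mouse fed the 40% HFD, *Fcer2a* was not tested and the median was -0.80. Of the genes then tested, 3 met the DEG criteria (*Cd79a*, *Ms4a1* and *Pax5*). Without the libraries whose *Ccl19* goes against the label, 5 did. Between the 60% HFD and the ND the median was 0.24 (0.50 without those libraries), none was a DEG and 14.4% of all genes were. The genotype difference in ligatured mice fed the 40% HFD differed from that in mice without ligature on the same diet by a median of -1.21, where none of the 8 and 2.63% of all genes met the criteria (4 of the 8 with edgeR, and 3.3% of all genes). Without the second ligatured WT mouse the median was -0.45, again with no DEG. The same change with ligature had a median of -0.33 under the ND (-0.08 without the library whose *Ccl19* goes against the label), 0.19 under the 60% HFD (0.18 without) and -0.49 over the diets (-0.44 without). None was a DEG there with limma, against 22.9%, 15.2% and 4.54% of all genes, and edgeR gave 1, *Cr2*, over the diets (7.55% of all genes).

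The ligature was then compared within each diet and genotype. In WT mice fed the 40% HFD all 8 genes were higher with ligature, by a median of 0.93, and 2 met the DEG criteria against 8.91% of all genes. *Cr2* was at 1.32, 13.7 and 3.05 CPM with and at 1.13, 1.67 and 0.455 CPM without ligature, a difference of 1.35 (SE 0.483; limma, adjusted p = 0.252). *Cd79b* was at 2.49, 26.1 and 5.53 CPM with and at 5.26, 2.57 and 1.67 CPM without ligature, a difference of 1.12 (SE 0.542; limma, adjusted p = 0.332). The groups overlapped for all 8 genes (15.5% of all genes separated them), and edgeR gave 5 DEGs (10.4% of all genes). Without the second ligatured WT mouse the median was 0.20, the differences of the 7 genes then tested ran from -0.02 to 0.60 and none was a DEG, whereas all 8 were without the first. Without replicate 1 of the mice without ligature 6 were, and without replicate 2 or 3 of them only *Cr2* was.

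In WT mice fed the 60% HFD the 8 genes were lower with ligature, by a median of -0.56, and none was a DEG with limma (0.527% of all genes were; edgeR gave 1, *Blk*, with 1.07% of all genes). *Cd79a* was at 0.583, 0.321 and 0.947 CPM with and at 1.94, 1.5 and 1.69 CPM without ligature. *Ms4a1* was at 0.972, 0.562 and 0.947 CPM with and at 2.68, 2.00 and 2.61 CPM without ligature. *Blk* was at 0.130, 0.401 and 0.505 CPM with and at 0.939, 1.08 and 0.845 CPM without ligature. In these and in *Cd79b*, every ligatured mouse was below every mouse without ligature, which 10.5% of all genes showed in one direction or the other. The 95% intervals nevertheless included 0, from -1.69 to 0.17 for *Cd79a* and from -1.17 to 0.08 for *Blk* (limma, adjusted p = 1.00 for both). Among CCL19-KI mice of the same diet the median was -0.41 (-0.42 without the library whose *Ccl19* was low) and *Cd79a* alone separated the groups (23.3% of all genes did), with none a DEG against 18.6% of all genes. Hepatocyte markers separated these CCL19-KI groups (mean log2 value of the list 7.28 to 10.3 with and 2.04 to 6.56 without ligature), and their part was not tested.

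In the remaining states the ligature differences were smaller. Under the ND the median was 0.25 in WT mice (0.03 without the library whose *Ccl19* was high) and -0.03 in the CCL19-KI group, and under the 40% HFD it was -0.21 in the latter genotype, with none a DEG against 16.4%, 13.5% and 0.829% of all genes. *Cr2* alone separated the WT groups under the ND, at 1.24, 2.18 and 1.39 CPM with and 0.598, 1.17 and 1.05 CPM without ligature (29.5% of all genes did). Hepatocyte markers separated these WT groups as well (mean log2 value of the list 6.47 to 9.35 with and 1.73 to 1.87 without ligature), and their part was not tested. The average of all 6 diet and genotype states had a median of -0.03 (-0.08 without the libraries whose *Ccl19* goes against the label), with none a DEG against 1.28% of all genes. The widest 95% interval of that average was again that of *Ms4a1*, -0.72 to 0.58 (-0.86 to 0.53 without those libraries). With sample quality weights 3 of the 8 passed after adjustment between ligature states in CCL19-KI mice fed the ND, as did 57.9% of all genes.

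Diets were compared with the ND within each genotype and ligature state, and the 40% HFD and 60% HFD comparisons share their ND mice. In ligatured WT mice all 8 genes were higher under the 40% HFD, by a median of 0.93, and 5 met the DEG criteria against 6.72% of all genes. *Fcer2a* was at 0.512, 3.42 and 0.963 CPM under the 40% HFD and at 0.207, 0.709 and 0.464 CPM under the ND, a difference of 0.71 (SE 0.283; limma, adjusted p = 0.304). It passed the filter only with the second of these 40% HFD mice, so it counts among the 5 through the group where it was high. *Pax5* was at 1.54, 12.1 and 2.73 CPM under the 40% HFD and at 0.276, 1.72 and 2.71 CPM under the ND, a difference of 1.09 (SE 0.496; limma, adjusted p = 0.390). The others were *Cd22* (1.07), *Cr2* (1.00) and *Blk* (0.66), and the groups overlapped for all 8 (18.4% of all genes separated them), with 7 DEGs by edgeR (7.62% of all genes). None met the criteria without the second ligatured WT mouse fed the 40% HFD, where the median was 0.25 and the 7 genes tested ran from 0.02 to 0.39, and none did without replicate 1 of the ligatured WT mice fed the ND, whereas 8 did without replicate 1 of the 40% HFD mice and 2 without replicate 3 of the ND mice.

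In CCL19-KI mice the 8 genes were lower under the 40% HFD than under the ND, with a median of -0.61 in ligatured mice and -0.43 in mice without ligature. None was a DEG with limma, against 16.1% and 4.7% of all genes, and edgeR gave 1, *Cd79a* with ligature (17.9% of all genes). With sample quality weights, whose estimation did not converge, 7 of the 8 passed after adjustment in the ligatured mice, as did 59.3% of all genes. In ligatured CCL19-KI mice, *Cd79a* was at 0.677, 1.06 and 0.439 CPM under the 40% HFD and at 2.33, 2.52 and 1.53 CPM under the ND, and *Blk* was at 0.602, 0.707 and 0.512 CPM under the 40% HFD and at 1.48, 1.17 and 0.797 CPM under the ND. Both separated the diets, as did 28.9% of all genes, and the difference of *Cd79a* was -0.86 with a 95% interval of -1.79 to 0.07 (limma, adjusted p = 0.257). Without ligature, *Blk*, *Fcer2a* and *Cd22* separated the diets (12.7% of all genes did).

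Under the 60% HFD 7 of the 8 genes were lower than under the ND in ligatured WT mice (*Cd22* was at 0.04), with a median of -0.59, and *Cd79b* and *Cr2* separated the diets (35.3% of all genes did). None was a DEG with limma, against 11.8% of all genes, and edgeR gave 4 (13.4% of all genes). With sample quality weights 3 passed after adjustment, and 30.0% of all genes did. Hepatocyte markers separated these diets narrowly (mean log2 value of the list 9.37 to 11.0 under the 60% HFD and 6.47 to 9.35 under the ND), and their part was not tested. *Cd79b* was at 1.55, 1.2 and 1.52 CPM under the 60% HFD and at 1.59, 6.64 and 4.26 CPM under the ND, so that the lowest ND mouse lay close to the highest 60% HFD mouse. In the other 3 comparisons none was a DEG. The median was 0.15 in WT mice without ligature (12% of all genes were DEGs), and -0.14 without the library whose *Ccl19* was high. It was 0.20 in CCL19-KI mice without ligature (23%), and 0.26 without the library whose *Ccl19* was low, and -0.17 in the ligatured ones (22.5%). In WT mice without ligature the median of the 40% HFD comparison was 0.21 (0.07 without the library labelled WT whose *Ccl19* was high), with none a DEG against 16.2% of all genes, and *Fcer2a* alone separated these diets, upward (20.7% of all genes did). Hepatocyte markers separated both HFD groups of WT mice without ligature from the ND group. The mean log2 value of the list was 9.13 to 11.1 under the 40% HFD, 9.16 to 11.3 under the 60% HFD and 1.73 to 1.87 under the ND. Their part was not tested. Averaged over genotype and ligature, the median was -0.00 for the 40% HFD and -0.16 for the 60% HFD (-0.05 and -0.16 without the libraries whose *Ccl19* goes against the label), with none a DEG against 7.9% and 9.88% of all genes.

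Across mice the 8 genes varied together. Over the 36 libraries the 28 pairs of genes had a median Pearson's r of 0.79 (0.64 to 0.94) on the log2 scale, and without the highest library it was 0.67 (0.42 to 0.91). Deviations from the group means gave a median r of 0.80 with all libraries and 0.69 without the highest, so mice of the same group also varied in this way. The pair with the highest r was *Cd79a* and *Cd79b*, the partner chains of the receptor, at 0.94 with and 0.91 without that library. *Cr2* went least with the others (median r of 0.72 with and 0.50 without). It was at 5.84 CPM in the library labelled CCL19-KI, 60% HFD, without ligature, replicate 3, where *Ms4a1* was at 2.21 CPM and below its value in both other mice of the group. All libraries share the genes' low depth, and these values are descriptions over libraries of 12 groups.

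The 10 genes most like the mean of the 8 over the 36 libraries, among 15754 other genes with a mean of at least 1 CPM, were largely known from B cells and lymphocytes. For every r with this mean, each of the 8 genes was first standardized over the libraries. Of these, 8 are given here: *Cxcr5*, the receptor of CXCL13 (r = 0.92), *Pou2af1*, a coactivator of octamer-binding factors (0.89), and *Ikzf3*, a lymphoid transcription factor (0.89). The remaining ones were *Spib*, an ETS-family factor (0.88), *Btla*, an inhibitory receptor of lymphocytes (0.88), *Ltb*, lymphotoxin beta (0.88), *Ighd*, the constant region of IgD (0.85), and *Gm4759* (0.84). Each of the 10 was highest in the same ligatured WT mouse. Without that mouse the r of *Cxcr5* was 0.86, and 9 of the 10 were still among the first 10.

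Genes known from B cells that did not go with the 8 were found as well, and these and *Cxcl13* were picked after their values were seen. *Ighm*, the constant region of IgM, had an r of 0.04 with the mean of the 8, *Blnk* 0.10 and *Btk* 0.14. The last 2 encode signalling proteins that myeloid cells also express. The median of *Ighm* was 251 CPM, against 17.7 CPM for *Igkc* and 3.03 CPM for *Ighd*, and the reason was not tested. *Cxcl13* had an r of 0.81, and 0.78 without the highest library. The mean of the T cell list had an r of 0.47 (0.30 without), and *Cd3e*, a chain of the T cell receptor complex, 0.41. That of plasma cells was 0.23, of macrophages 0.12, of hepatocytes -0.24 and of adipocytes -0.07. The mean of the other B cell genes had an r of 0.90 and that of the genes for B cell attraction and survival 0.86. For the lymphoid stroma list it was 0.59 and for the immunoglobulin constant genes 0.53.

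**Figure D4:**
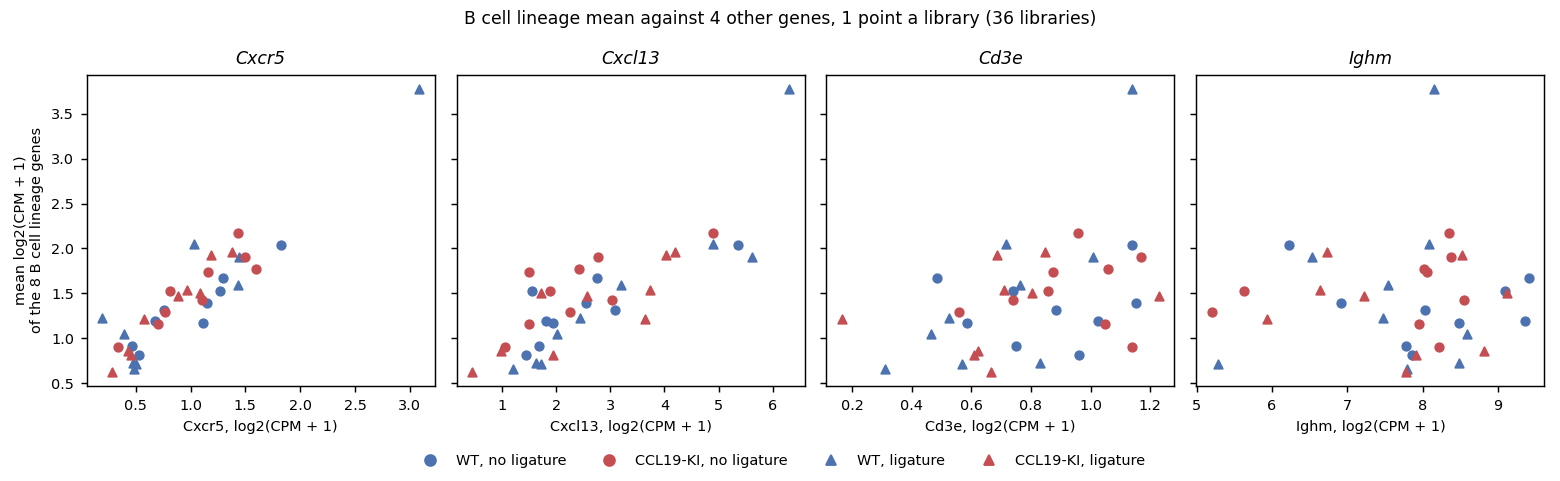
Mean log2(CPM + 1) of the 8 B cell lineage genes against that of *Cxcr5*, *Cxcl13*, *Cd3e* and *Ighm*, 1 point for each of the 36 libraries; colours and symbols give genotype and ligature as in the plot of the 8 genes by group. The points rise together for *Cxcr5* (r = 0.92) and *Cxcl13* (r = 0.81), less so for *Cd3e* (r = 0.41) and hardly for *Ighm* (r = 0.04). These r are with the mean of the 8 genes after each was standardized over the libraries, which had an r of 0.999 with the plotted mean.

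Lists of related genes were followed in ligatured mice fed the 40% HFD. Of 18 other B cell genes tested, 8 met the DEG criteria as lower in CCL19-KI mice and none as higher, with a median of -0.81, where 1.25% of all genes were DEGs, and none passed after adjustment (limma). Without the second WT mouse none of the 18 was a DEG, the median was -0.23, and none of the DEGs named from the other lists below was one. *Cxcr5* was at 0.146, 7.46 and 1.04 CPM in WT and at 0.376, 0.848 and 0.219 CPM in CCL19-KI mice. The groups overlapped for *Cxcr5*, which was not a DEG (-0.89, and -0.07 without the second WT mouse; limma, adjusted p = 1.00). *Cxcl13* was at 4.39, 77.7 and 28.8 CPM in WT and at 2.86, 4.95 and 0.365 CPM in CCL19-KI mice, a difference of -2.89 (SE 1.02; limma, adjusted p = 1.00), or -2.01 without that mouse, and the groups overlapped. Of 9 genes for B cell attraction and survival tested, 2 were DEGs, both lower, *Cxcl13* and *Tnfrsf13c*, the receptor of the survival factor BAFF. Of 9 T cell genes tested, none was a DEG and the median was -0.16. Of 8 plasma cell genes 1 was a DEG, *Mzb1*, lower, and the median was -0.03. None of 10 macrophage, 10 hepatocyte and 8 adipocyte genes was a DEG, with medians of -0.21, 1.05 and -0.46. Of the 3 immunoglobulin constant genes 1 was a DEG: *Ighd* was at 2.56, 12.7 and 3.45 CPM in WT and at 1.88, 2.62 and 1.24 CPM in CCL19-KI mice (-1.07, and -0.48 without that mouse). *Ighm*, in contrast, was at 176, 284 and 271 CPM in WT and at 241, 148 and 218 CPM in CCL19-KI mice.

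In mice without ligature fed the 60% HFD, where *Cd79a*, *Cd79b* and *Pax5* separated the genotypes upward, 2 of the 18 other B cell genes were DEGs, both higher in CCL19-KI mice, and the median of the list was 0.45, where 23.4% of all genes were DEGs and 30.7% separated the groups. They were *Ralgps2* and *Ly6d*, a surface antigen of B cell precursors and of squamous epithelia, which differed by 1.59 (SE 0.547; limma, adjusted p = 0.0452). Without the library labelled CCL19-KI whose *Ccl19* was low and the WT library whose *Ccl19* was high, *Ly6d* differed by 0.85 (adjusted p = 0.257), neither was a DEG, and 2 others of the 18 were. The markers of hepatocytes and epididymis that moved with these groups, given above, moved with *Ly6d* as well, and their part in its difference was not tested. Of 9 T cell genes 1 was a DEG, *Cd247*, higher, with a list median of 0.30 (2 and 0.38 without those libraries).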

How the data were processed

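RNA of eWAT was sequenced in 36 mice (3 in each of 12 groups, assigned from the labels). According to the authors' methods, ribosomal RNA was depleted, directional libraries were sequenced, and reads were trimmed with Trimmomatic 0.38, aligned with Bowtie2 within RSEM 1.3.0 and normalized with edgeR. The methods name mm10 and the processing notes GRCm39; the annotation release is not given in the sources used here. The signal values deposited by the authors are edgeR-normalized CPM per gene. All 100% of them were whole multiples of 1 read (tolerance 0.01), so read counts were recovered. That the 3 libraries of a group are separate mice is stated by the series.

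Values were analysed as log2(CPM + 1) with limma 3.58.1 in R 4.3.3 (12 group means, 24 residual degrees of freedom, eBayes with trend) over the 17852 genes with at least 1 CPM in at least 3 libraries, in 30 comparisons, with Benjamini-Hochberg adjustment over all genes. Adding 1 makes differences of low genes smaller and the ratio of the DEG criteria harder for them to reach. edgeR 4.0.16 (quasi-likelihood, TMM) was run on the recovered reads. Other alternatives were a pseudocount of 0.1, no filter, median-of-ratios scaling, the replicate number as a block, sample quality weights, the 18 libraries of the same ligature status and each library left out; leaving out the libraries whose *Ccl19* goes against the label was chosen after seeing the data. The procedure was tested on simulated data. The members and gene lists were chosen with earlier results of these data known. Named are the 8 genes, up to 4 genes a list and comparison that passed after adjustment, and the 10 genes most like the 8 (2 of them are not reported here); any other gene named was chosen after its values were seen. Counting intervals would cover counting error only. Python 3.11.15 (pandas 2.3.3, matplotlib 3.10.9) served for tables and plots.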

Additional observations from a re-analysis of the deposited data

Results flagged for a closer look

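For *Cd79a*, the difference between CCL19-KI and WT mice had opposite signs in 2 states in which the groups did not overlap. All CCL19-KI mice were above all WT mice without ligature under a 60% HFD (0.59 on the log2 scale), and all were below with ligature under a 40% HFD (-1.55). These 2 states were picked, among pairs of genotype or ligature comparisons, because the groups separated in opposite directions in these same values. The adjusted p-values of the change therefore do not test the pattern, and the adjustment covers genes, not the pairs looked at. The change itself was 2.15 (SE 0.641; limma, adjusted p = 0.0779). *Pax5* showed the same pattern, with 0.69 and -1.72 in these states and a change of 2.41 (SE 0.701; limma, adjusted p = 0.0741). These states differ in both diet and ligature, which cannot be told apart in this contrast. Without the second ligatured WT mouse fed the 40% HFD the changes were 1.46 for *Cd79a* and 1.71 for *Pax5* (limma, adjusted p = 0.234 and 0.222), and without the library labelled CCL19-KI whose *Ccl19* was low they were 2.26 and 2.56 (adjusted p = 0.0587 and 0.0544).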

How the results depend on the processing

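No direction of a gene that was a DEG or separated its groups reversed under any setting. On settings that kept all libraries, 180 of 194 medians of the 8 genes moved by less than the spread between mice and 166 of 194 counts of DEGs stayed within 1.5 times, and with each library left out, 353 of 360 medians and 334 of 360 counts did. Most comparisons had no DEG among the 8, and a count that stayed at 0 was taken as kept. For the ligature in WT mice under a 40% HFD, 5 of 6 counts moved with 1 library left out. The spread used (0.546) is larger than most medians, so a median could change sign and be taken as kept. For the genotype with ligature under an ND it ran from -0.18 to 0.36 with 1 library left out. The cause of the changes was not tested.

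With edgeR, whose fold changes carry no added 1, the median was -2.38 for the genotype with ligature under a 40% HFD, 1.71 for the ligature in WT mice under a 40% HFD, -1.14 under a 60% HFD, 1.80 for the 40% HFD and -1.52 for the 60% HFD against the ND in ligatured WT mice, -2.21 for genotype by ligature under a 40% HFD and -2.15 for genotype by diet, 40% HFD against ND. It gave 1 DEG for the genotype with ligature under a 60% HFD, 5 and 1 for the ligature in WT mice under a 40% and a 60% HFD, 1 for the 40% HFD against the ND in ligatured CCL19-KI mice, 4 for the 60% HFD against the ND in ligatured WT mice, 1 for genotype by ligature averaged over diets and 4 under a 40% HFD. Where any of the 8 was a DEG, 1.07% to 17.9% of all genes were with edgeR, 1.04% to 18.0% with a pseudocount of 0.1 and 3.85% to 37.3% with sample quality weights.

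A pseudocount of 0.1 gave medians of -1.25 for the 60% HFD against the ND in ligatured WT mice and -1.75 for genotype by diet, 40% HFD against ND. It gave 1 DEG each for the genotype with ligature under a 60% HFD, the ligature in WT mice under a 40% HFD, the 40% HFD against the ND in ligatured WT mice and genotype by ligature under a 40% HFD, and 2 each for the ligature in WT mice under a 60% HFD, the 40% HFD against the ND in ligatured CCL19-KI mice and the 60% HFD against the ND in ligatured WT mice.

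Sample quality weights, whose estimation stopped short of convergence, gave medians of -0.13 for the genotype without ligature under an ND, 0.31 for the ligature in WT mice under a 40% HFD, 0.53 for the ligature in CCL19-KI mice under an ND, 0.32 for the 40% HFD against the ND in ligatured WT mice and 0.43 for genotype by ligature under an ND. The DEGs were 5 for the genotype with ligature under a 40% HFD and 2 under an ND, 0 and 3 for the ligature in WT mice under a 40% and a 60% HFD, 2 and 1 in CCL19-KI mice under an ND and a 40% HFD, 0 for the 40% HFD against the ND in ligatured WT mice, 1 in CCL19-KI mice without and 6 with ligature, 4 for the 60% HFD against the ND in ligatured WT mice, 3 in ligatured CCL19-KI mice and 1 averaged, and 2 for genotype by diet, 40% HFD against ND. With these weights, and under no other setting, some of the 8 genes passed after adjustment: 7 for the 40% HFD against the ND in ligatured CCL19-KI mice (59.3% of all genes), 3 for the ligature in CCL19-KI mice under an ND (57.9%), 3 for the 60% HFD against the ND in ligatured WT mice (30.0%), 2 for the genotype with ligature under an ND (42.3%) and 1 each for the 60% HFD against the ND in ligatured CCL19-KI mice (59.8%) and averaged (44.0%) and for genotype by diet, 40% HFD against ND (18.8%). Fitting the 18 ligatured libraries alone gave 0 DEGs for the 40% HFD against the ND in WT mice.

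With 1 library left out, the lowest and highest values were -1.97 and -0.75 (2 to 8 DEGs) for the genotype with ligature under a 40% HFD, 0.20 and 1.46 (0 to 8) for the ligature in WT mice under a 40% HFD, 0.25 and 1.54 (0 to 8) for the 40% HFD against the ND in ligatured WT mice and -1.77 and -0.45 (0 to 7) for genotype by ligature under a 40% HFD. The DEGs were 3 to 8 for genotype by diet, 40% HFD against ND, 0 to 4 for the 60% HFD against the ND in ligatured WT mice, 0 to 2 for the genotype with ligature under a 60% HFD and for genotype by ligature averaged over diets, and 0 to 1 for the genotype without ligature under a 60% HFD and the 40% HFD against the ND in ligatured CCL19-KI mice. The shares of all genes with libraries left out are not given here. These counts, and the counts with libraries left out given above, thus have no background beside them.

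With the replicate number as a block, the genotype with ligature under a 40% HFD kept a median of -1.42 and 8 DEGs, and the ligature in WT mice under a 40% HFD had 3 DEGs in place of 2. The numbers do not pair the mice: deviations from group means of same-numbered libraries had a median r of -0.02, and 73 of 198 pairs were above 0.1. For libraries with different numbers the median r was 0.02, and 151 of 396 pairs were above 0.1. With 3 mice a group and a median of 9 (*Fcer2a*) to 44 (*Cd79b*) reads a library, changes of the size seen in most comparisons could not be separated from the spread between mice.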

Other observations

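Averaged over genotype and ligature, the 60% HFD against the ND gave a rise of *Ighm*, the constant region of IgM, by 1.41 on the log2 scale (SE 0.292; limma, adjusted p = 0.00232), of *Blnk*, an adaptor of B cell receptor signalling, by 0.88 (adjusted p = 0.00984), of *Cd180*, a Toll-like receptor homologue, by 0.81 (adjusted p = 0.0237) and of *Cd72*, an inhibitory receptor, by 0.59 (adjusted p = 0.0426). Of 18 other B cell genes tested these last 3 were the only ones to pass, the median of the list was -0.05, and 18.6% of all genes passed. None of the 8 lineage genes passed (median -0.16), and the difference between them and these genes was not tested. Without the libraries whose *Ccl19* goes against the label, *Ighm* differed by 1.3 (limma, adjusted p = 0.00747), *Blnk* by 0.78 (adjusted p = 0.0251) and *Cd180* by 0.79 (adjusted p = 0.0231), and *Cd72* no longer passed (0.52; adjusted p = 0.101). In the same comparison 8 of 10 hepatocyte genes and 2 of 10 macrophage genes also rose after adjustment (list medians 3.05 and 0.15), and their part in these values was not tested. *Il7r*, the receptor of interleukin 7, rose by 1.59 (limma, adjusted p = 0.00234), *Il7* itself fell by 0.40 (adjusted p = 0.0310), and *Irf4*, a transcription factor followed here in the plasma cell list, fell by 1.60 (adjusted p = 7.77e-04). These 3 passed without those libraries too, with 1.61, -0.39 and -1.5 (adjusted p = 0.00241, 0.0435 and 0.00327). *Ighm* was at 356, 221 and 384 CPM in ligatured WT mice fed the 60% HFD and at 37.9, 91.2 and 186 CPM in those fed the ND. In the same mice *Cd79a* was at 0.583, 0.321 and 0.947 CPM under the 60% HFD and at 0.690, 3.04 and 3.02 CPM under the ND.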
